A study of Homo sapiens with 4 samples.

Results

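Coding N6-methyladenosine (m6A) sites close to exon-exon junctions were examined in C643 cells, an established line from an anaplastic thyroid carcinoma. A site was a member if it lay, on the same strand, in the coding sequence of the Ensembl canonical transcript of a protein-coding gene with at least 2 exons, and within 100 nt of a junction counted along the spliced RNA. Of the 18789 sites listed, 7398 lay in such coding sequences and 2240 of these met the rule, which is 30.3% (95% Wilson interval 29.2 to 31.3) of spliced coding sites and 11.9% of the list. The other 5158 spliced coding sites were more than 100 nt from every junction and served as the comparison. The members lay in 1394 of the 2413 host genes with spliced coding sites. The sites come from miCLIP2 of polyadenylated RNA, which crosslinks an antibody against m6A to the RNA, so that reverse transcription stops at the bound position. Peaks at adenosines were then scored by the m6Aboost classifier. There was 1 group, untreated wild-type cells, with 3 biological replicates and 4 libraries, as replicate 1 was split into 2 technical libraries. No METTL3-depleted C643 sample was analysed here, so dependence of these sites on METTL3 was not tested. Of the thyroid follicular marker genes TG, TSHR, PAX8, NKX2-1, FOXE1 and SLC5A5, 0 held a coding site, and since the list holds no expression values the cell type could not be checked further.

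m6A is deposited on nuclear RNA by a complex with METTL3 as its catalytic subunit, mainly in the motif DRACH (D is A, G or T; R is A or G; H is A, C or T), within which the pentamer GGACT is a preferred form. After splicing, an exon junction complex stays on the exon upstream of each junction, and the exon junction complexes of closely spaced junctions are known to keep METTL3 from the surrounding RNA. m6A of messenger RNA is known to gather in long internal exons and around the stop codon, and coding sequence close to junctions is known to carry little of it.

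The authors pooled the replicates into 1 list, so the spread between replicates cannot be given and the list does not give the read depth behind each site. Intervals cover the sampling of sites or motifs only. All comparisons below therefore set listed motifs against unlisted motifs of the same transcripts, or members against other coding sites, and describe this list. In each test n is the number of transcripts that inform it. Sites of a transcript are not independent, and a motif without a listed site may be unmethylated, too weakly covered, or rejected by the classifier. The inputs of the classifier are the local sequence, the transcript region, the peak signal relative to the mean peak of the same gene, and C-to-T transitions. Isoform use in C643 was not analysed here, so distances are those of the annotation.

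The windows of the sites on which the results below turn are given 5′ to 3′ as 21 nt of GRCh38 with the site in the middle of the capitals, which mark the pentamer. The members with the highest scores in internal exons, in a first exon and in a last exon are given first. The classifier uses the local sequence, so their motifs partly follow from this choice and need not be typical of members. MRC2, an endocytic collagen receptor, has its site at chr17:62664579 on the plus strand, in exon 2 of 30 and 32 nt after a junction (window chr17:62664569-62664589). PCNA, the sliding clamp of replication, has its site at chr20:5119677 on the minus strand, 100 nt before the end of exon 1 (window chr20:5119667-5119687). LRPAP1, a chaperone of the low-density lipoprotein receptor family, has its site at chr4:3512980 on the minus strand, 57 nt into its last exon and 4 nt before the stop codon (window chr4:3512970-3512990). DDX39A, an RNA helicase, has its site at chr19:14413039 on the minus strand, 27 nt before the end of exon 2 of 11 (window chr19:14413029-14413049).
MRC2: tcagccatGGACTgcagggct
PCNA: cagagcatGGACTcgtcccac
LRPAP1: ggcacaacGAACTctgaaggc
DDX39A: gccatcgtGGACTgtggcttt

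Sites in some of the shortest exons with members are shown because every base of them is close to both junctions. PPP1R14B, an inhibitor of protein phosphatase 1, carried a site at chr11:64244949 on the minus strand in an exon of 33 nt, with a score of 0.672. COL7A1, the collagen of anchoring fibrils, carried one at chr3:48569740 on the minus strand in an exon of 36 nt, with a score of 0.732.
PPP1R14B: ctgctggtTGACTgttacaaa
COL7A1: ggagtgcaGGACTaaagggtg

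At some exon starts the pentamer itself is cut by the intron, and the spliced RNA and the genome then read differently. The site of COL6A2, a chain of collagen VI, at chr21:46125465 on the plus strand and that of MCRIP2 at chr16:648120 on the plus strand are the first bases of their exons, so the junction falls after base 10 of each spliced window. The genomic window runs back into the intron instead.
COL6A2 spliced: gggtgctgCGACTgtgagaag
COL6A2 genomic: acccccccAGACTgtgagaag
MCRIP2 spliced: cggctgcaGAACTttgtgccc
MCRIP2 genomic: ctgcccacAGACTttgtgccc

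The coding sequences of the host transcripts held 77772 DRACH motifs, of which 8.47% were listed as sites. Within 100 nt of a junction 56091 motifs were found and 2006 of them (3.58%) were listed, against 4581 of 21681 motifs farther away (21.1%, 20.6 to 21.7). Close motifs thus made up most of the coding motifs and the smaller part of the listed ones. The listed share was almost level over the first 50 nt, at 2.58% to 2.92% in successive bins of 10 nt. It was 3.33% at 51 to 60 nt, 6.56% at 71 to 80 nt and 10.5% at 91 to 100 nt, and went on to 15.2% at 111 to 120 nt, just outside the window. Just inside the limit, at 91 to 100 nt, 168 of 1605 motifs were listed, and just outside it, at 101 to 110 nt, 154 of 1296 (11.9%). Within transcripts, motifs 51 to 100 nt from a junction had 2.13 times (1.93 to 2.34) the odds of being listed of motifs at 1 to 50 nt (Mantel-Haenszel test stratified by transcript, n = 1245, adjusted p = 2.16e-54). Inside the nearest 50 nt, the outer against the inner part gave an odds ratio of 1.05 (0.924 to 1.19), which did not pass the test.

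**Figure D1:**
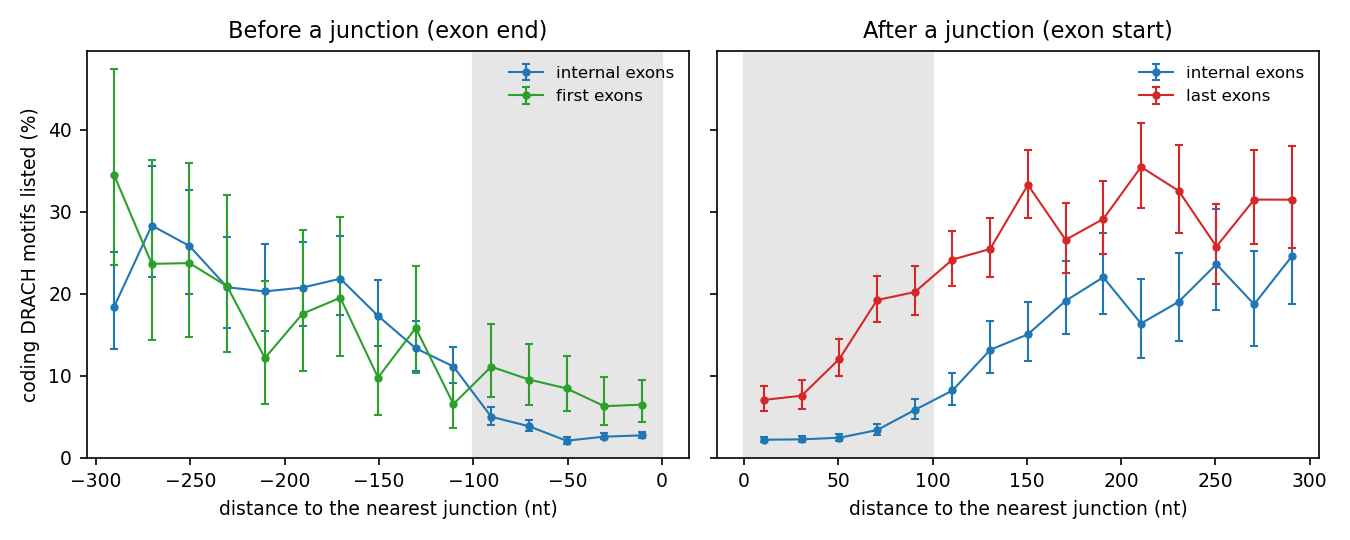
Share of coding DRACH motifs listed as m6A sites (y axis, percent) by distance to the nearest exon-exon junction (x axis, bins of 20 nt), for motifs before a junction (left) and after one (right), with 95% Wilson intervals; grey marks the 100-nt window. Within the window, internal exons (blue) lie below first exons (green) and last exons (red). Beyond it the share is higher in internal and last exons, while first exons, with few motifs a bin, vary between 6.55% and 34.5%.

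By the exon that holds them, 974 members (43.5%) lay in internal exons of at most 200 nt, 336 (15%) in internal exons of 201 to 400 nt and 233 (10.4%) in internal exons over 400 nt. Another 573 (25.6%) lay at the start of a last exon and 124 (5.54%) at the end of a first exon. Members thus came most often from short internal exons, with a median exon length of 216 nt over all members (quartiles 136 and 617) against 1432 nt (803.5 and 2581) for other coding sites, a contrast that the distance rule partly sets. Host genes with members had a median of 9 exons (6 to 15) and genes with other coding sites alone 7 (3 to 12).

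Short internal exons held most of the close motifs but listed the smallest share of them. Of 40066 close motifs in internal exons up to 200 nt, 848 (2.12%, 1.98 to 2.26) were listed. The share was 3.87% (306 of 7916) in exons of 201 to 400 nt and 8.4% (214 of 2548) in exons over 400 nt. In finer steps it lay between 1.99% and 2.32% in all 4 classes up to 200 nt, with no trend over them, was 3.69% at 201 to 300 nt and 4.9% at 301 to 400 nt, and reached 9.18% (8 to 10.5) at 401 to 1000 nt. Exons over 1000 nt gave 5.78% (4.17 to 7.97, 34 of 588 motifs). Comparing motifs of the same transcript, those in internal exons over 400 nt had 8.62 times (6.35 to 11.7) the odds of those in exons up to 200 nt (Mantel-Haenszel test stratified by transcript, n = 183, adjusted p = 7.25e-66). Few transcripts had both kinds of exon and a listed motif, and the odds ratio ran from 5.37 to 22.7 over the alternatives tried.

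**Figure D2:**
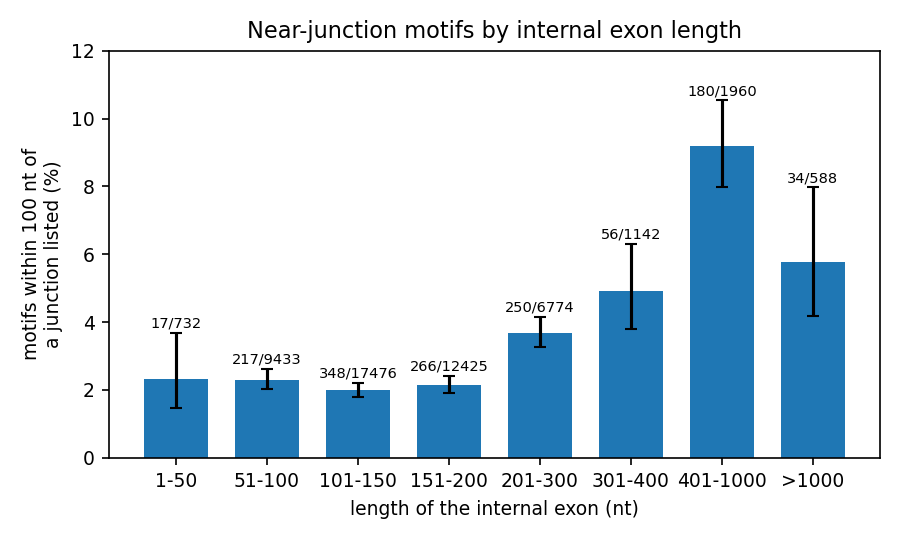
Share of DRACH motifs within 100 nt of a junction that were listed (y axis, percent) by the length of the internal exon (x axis, nt), with 95% Wilson intervals and listed motifs over all motifs above each bar. The share is near 2% in the 4 classes up to 200 nt and highest, 9.18%, at 401 to 1000 nt.

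The side of the junction did not pass the test. In internal exons, motifs within 100 nt of 1 junction only were listed at 3.11% (443 of 14240) after a junction and 3.41% (465 of 13644) before one, with an odds ratio of 0.958 (0.832 to 1.1, Mantel-Haenszel test stratified by transcript, n = 627, adjusted p = 0.542). For motifs within 50 nt of 1 junction only, it was 0.862 (0.744 to 0.999), lower after a junction. That interval excludes 1, but the test did not pass the threshold after adjustment. Motifs close to both junctions of their exon were listed at 2.03% (460 of 22646).

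Exon position went with larger differences. Among motifs whose nearest junction was upstream, 12.6% (529 of 4210) were listed in last exons and 2.6% (676 of 25959) in internal exons, an odds ratio within transcripts of 4.05 (3.5 to 4.68, Mantel-Haenszel test, n = 771, adjusted p = 4.5e-101). Among motifs whose nearest junction was downstream, first exons gave 8.07% (109 of 1351) and internal exons 2.82% (692 of 24571), an odds ratio of 2.14 (1.63 to 2.81, same test, n = 240, adjusted p = 1.64e-08). Neither passed the test once exon length, distance, side, isoforms and the stop codon were fitted together in a conditional logistic model. The odds ratio was then 0.91 (0.714 to 1.16, n = 1300, adjusted p = 0.516) for the last exon and 1.2 (0.931 to 1.55, adjusted p = 0.219) for the first exon. In this model length was fitted over first, internal and last exons alike, and exons over 400 nt gave 6.5 (5.33 to 7.91). That value is therefore not the internal-exon contrast of 8.62 after adjustment. Members at last exon starts had a median exon length of 1106 nt, so the length and last-exon terms overlap. Within internal exons, the share listed was 4.66% in the second exon, 4.9% in the penultimate exon and 2.24% in the rest. Limited to internal exons up to 200 nt these shares were 2.79%, 4.07% and 1.83%. The split by exon number was made after values were seen and was not tested.

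Many members in last exons were also close to the stop codon. Of all members, 601 (26.8%) lay within 200 nt upstream of the stop codon, and 429 of these were among the 573 at the start of a last exon. Close motifs within 200 nt of the stop codon were listed at 10.9% (552 of 5072) and those farther at 2.85% (1454 of 51019), an odds ratio of 2.66 (2.36 to 3, Mantel-Haenszel test, n = 1027, adjusted p = 3.38e-67). In the joint model it was 1.36 (1.13 to 1.64, n = 1300, adjusted p = 0.00165). The difference was seen both inside and outside last exons, with 14.6% against 8.73% at last exon starts and 6.5% against 2.67% elsewhere.

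Some annotated junctions may not be used in every RNA molecule of a gene. Of the members, 675 (30.1%, 28.3 to 32.1) lay in at least 1 other annotated transcript at more than 100 nt from every junction, and for 197 of them that transcript was of the protein-coding type. Motifs of this kind were listed at 5.52% (599 of 10854) and motifs close to a junction in every transcript that holds them at 3.11% (1407 of 45237), an odds ratio of 1.54 (1.37 to 1.73, Mantel-Haenszel test, n = 1027, adjusted p = 8.5e-13). Restricted to other transcripts of the protein-coding type it was 1.79 (1.48 to 2.17). Thus 1407 listed DRACH motifs were close to a junction in every annotated transcript that holds them, and among these motifs the odds ratio for exons over 400 nt was 8.34 (5.85 to 11.9). Both restrictions were chosen after seeing the data.

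**Figure D3:**
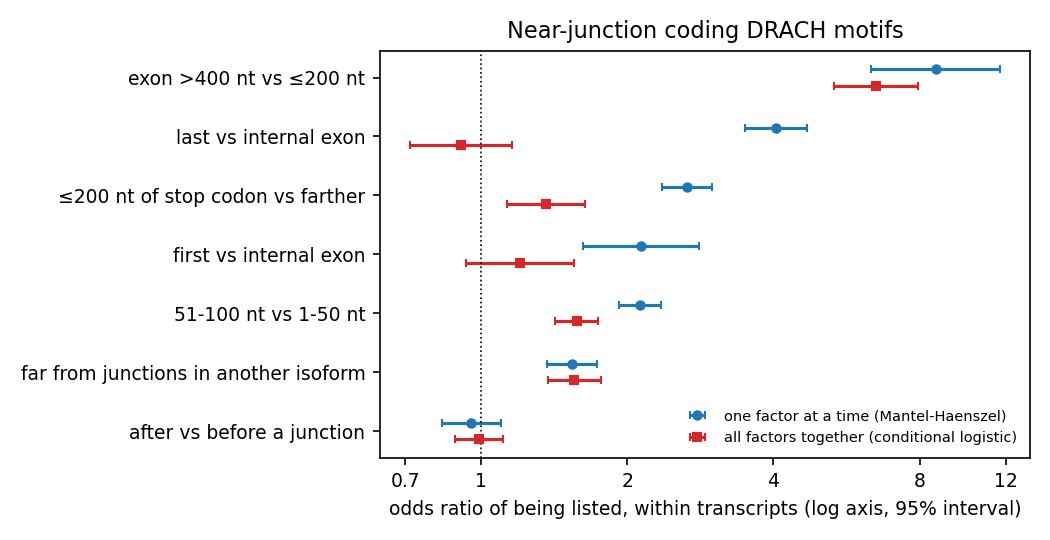
Odds ratios of being listed for DRACH motifs within 100 nt of a junction (x axis, log scale, 95% intervals), from motifs of the same transcript, for each factor alone (blue circles, Mantel-Haenszel) and for all factors together (red squares, conditional logistic). Exon length has the highest value in both, 8.62 alone (internal exons only) and 6.5 together (all exons), whereas the last exon moves from 4.05 to 0.91. The values alone for exon length, side, first exon and last exon use subsets of the motifs in the joint fit.

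DRACH motifs carried 2006 of the members (89.6%, 88.2 to 90.7) and 88.8% (87.9 to 89.6) of other coding sites. Among DRACH sites, GGACT made up 31.6% (634, 29.6 to 33.7) of members and 24.1% (1104, 22.9 to 25.4) of others. Within transcripts with both kinds of site the odds ratio for GGACT was 1.59 (1.29 to 1.96, Mantel-Haenszel test, n = 336, adjusted p = 8.69e-06), and that for DRACH over other pentamers was 1.46 (1.08 to 1.98, n = 210, adjusted p = 0.0147). Neither passed for members within 50 nt of a junction, with odds ratios of 1.12 (0.875 to 1.44) and 1.1 (0.785 to 1.53). GGACT was followed by GGACA (284 members), GAACT (258), AGACT (228), GGACC (176) and TGACT (130).

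On the scale of odds, the preference for GGACT among motifs was not stronger close to junctions. Close GGACT motifs were listed at 16% (634 of 3954) and other close DRACH motifs at 2.63%, while farther away the shares were 59.5% (1104 of 1857) and 17.5%. As a ratio of shares, the preference was larger close to junctions, so the answer depends on the scale. The odds ratio of GGACT over other DRACH motifs was 7.45 (6.64 to 8.37) close to junctions and 8.81 (7.75 to 10.01) farther away, a ratio of 0.846 (0.712 to 1.01). Even the preferred pentamer was thus listed less often within 100 nt of a junction than beyond it. Of 234 members outside DRACH, 195 had a C after the A and 39 did not. By reading frame, close motifs were listed at 2.77% (2.52 to 3.05) when the A was the first base of a codon, 3.57% (3.37 to 3.78) for the second and 4.95% (4.52 to 5.41) for the third. For GGACT alone the shares were 18% (14.9 to 21.5), 15.1% (13.8 to 16.5) and 18.4% (15.6 to 21.5), so that this order was not seen within 1 pentamer. The split by frame was made after values were seen and was not tested.

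Members had lower prediction scores than other coding sites. The score is a fraction between 0 and 1 with which the classifier places a peak among modified sites, and it is not a methylation level. Its median was 0.656 (quartiles 0.567 and 0.766) for members and 0.725 (0.63 and 0.812) for others. With transcript and pentamer held fixed, members scored lower (difference -0.0545, -0.0638 to -0.0451, linear fit with errors clustered by transcript, n = 581, adjusted p = 4.98e-30). Among sites with a score of at least 0.7 the difference was -0.00648 (-0.0152 to 0.00226). The median was 0.611 at 1 to 20 nt from the junction, 0.664 at 41 to 60 nt, 0.704 at 81 to 100 nt and 0.73 at 101 to 200 nt. GGACT sites showed the same order as the whole, with a median of 0.72 for members and 0.802 for others.

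By exon, the median score was 0.617 in internal exons up to 200 nt, 0.654 at 201 to 400 nt, 0.721 over 400 nt, 0.667 at first exon ends and 0.704 at last exon starts. A score of at least 0.7 was reached by 876 members. These were 27.7% of members in internal exons up to 200 nt (270) and 55.4% of those in internal exons over 400 nt (129). The 6 highest scores were those of MRC2 (0.971), the adaptor APBA3 (0.965), LRPAP1 (0.964), the vesicle trafficking factor MON1B (0.964), the proteasome activator subunit PSME3 (0.963) and the ribosome biogenesis factor WDR74 (0.961). None of these 6 exons was a short internal one: MRC2 with 402 nt, APBA3 with 613 nt and MON1B with 820 nt were internal exons over 400 nt, and the other 3 were last exons.

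**Figure D4:**
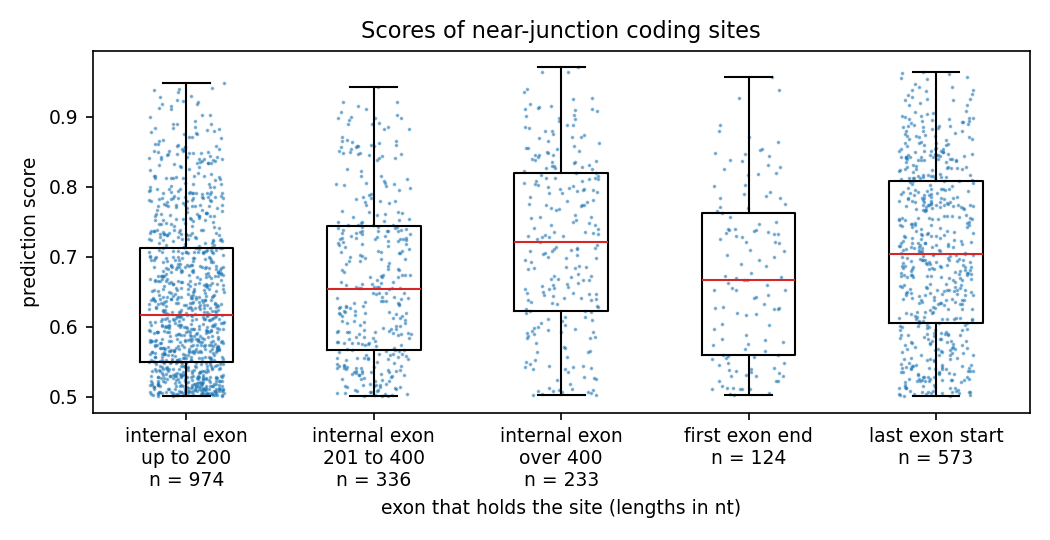
Prediction scores of the members (y axis, no unit, 0 to 1) by the exon that holds them (x axis); points are sites, boxes give quartiles and the median in red, and whiskers reach the farthest site within 1.5 times the box height. Medians run from 0.617 in internal exons up to 200 nt to 0.721 in internal exons over 400 nt.

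Members stood alone more often than other coding sites, in a zone where 3.58% of DRACH motifs were listed against 21.1% farther away. Whether the contrast in neighbours goes beyond that difference was not tested. Another listed coding site lay within 50 nt of 442 members (19.7%, 18.1 to 21.4) and of 2201 others (42.7%, 41.3 to 44). The 974 members in internal exons up to 200 nt fell into 900 exons, of which 69 (7.67%) held more than 1 member and none more than 3. Exons of 79 nt in PRKCSH, a subunit of glucosidase II, and in METTL26 held 3 each. In PRKCSH the 3 scores were 0.55, 0.528 and 0.631.

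The bases next to a junction were looked at on each side. Of 1989 DRACH motifs with the A in the first 3 bases of an exon 57 (2.87%, 2.22 to 3.7) were listed. Of 259 with the A in the last 3 bases, 0 were listed, which allows a share of up to 1.16%. This count cannot tell methylation from read placement. A site is the genomic base before a read start, so a stop at the last base of an exon is placed in the intron. For the 2 bases before it, reads would hold only 1 or 2 nt ahead of the junction, and soft-clipping of 5′ ends was prohibited. Whether such reads were aligned was not tested. At 157 of these 259 the pentamer spans the junction, so the spliced and genomic sequences can differ there as at exon starts, and 102 lie wholly in the exon, where 0 listed allows up to 2.94%. At bases 4 to 6 from the exon end it was 2.77% (48 of 1731). All 53 members whose pentamer spans a junction were accordingly at exon starts, 1 or 2 nt into the exon, with scores from 0.501 to 0.851 and a median of 0.591. For 11 of these the spliced and genomic pentamers differ. COL6A2, DCTN3 and NACC1 read DRACH in the genome and not in the spliced RNA, as in the COL6A2 windows above, and 0 members read the reverse. These splits, and those by intron that follow, were made after values were seen and were not tested.

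Intron length went with small differences only, from 4.03% listed next to introns up to 100 nt to 3.34% next to introns over 5000 nt. Where the nearest intron itself held a listed site, 38 of 195 close motifs (19.5%, 14.5 to 25.6) were listed, against 3.52% elsewhere. In all, 42 members in 30 genes lay next to such an intron. Whether these introns were retained in the RNA was not tested.

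Most host genes carried few members. In 868 genes (62.3%) there was 1, in 339 there were 2, in 187 at least 3 and in 35 at least 5. In 813 genes all spliced coding sites were members, although 514 of those had a single coding site, and 581 genes had both kinds. There were 108 genes with at least 3 coding sites, all of them members.

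COL7A1 and FLNA held the most, with 11 members each. All 11 coding sites of COL7A1 (chr3:48566922-48592695, minus strand) were members, in 11 of its 119 exons, of 33 to 130 nt. The lowest of their scores was 0.503, the median 0.594 and the highest 0.732, and 9 of its 204 close motifs were listed (4.41%). In FLNA, which crosslinks actin filaments, 11 of 12 coding sites were members, in 6 of 48 exons. Its highest score, 0.89, was at a GGACT 19 nt into exon 4 of 98 nt, and 11 of its 104 close motifs were listed (10.6%). The remaining coding site of FLNA lay 109 nt into the last exon.

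PTPRF, a receptor tyrosine phosphatase, had 9 members among 13 coding sites. Of these, 5 lay in its exons of 579 and 582 nt, which also held the 4 other coding sites, and the highest score of 0.885 was at a GGACT 70 nt into exon 9. COL6A2 had 8 members among 14, 7 of them in internal exons of 45 to 153 nt with scores up to 0.666, whereas its other coding sites had scores from 0.707 to 0.887. MYH9, the heavy chain of a nonmuscle myosin, had 7 of 7, with scores from 0.506 to 0.689. AGRN, a heparan sulfate proteoglycan, had 7 of 8, and the highest of its scores was 0.859.

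Of the genes with 6 members, the basement membrane collagen COL4A2, METTL26 and SPATA20 had no coding site elsewhere, and ARHGEF2 had 1. Among the genes with 6 members, METTL26 had the highest share, as 5 of its 13 close motifs (38.5%) were listed. Its coding sequence has 612 nt over 6 exons. Some genes with fewer members and fewer close motifs had higher shares, as with 4 of 6 motifs (66.7%). XYLT2, which starts glycosaminoglycan chains, had 6 of 13, with scores from 0.611 to 0.903. COL6A3 had 6 of 24, of which 5 lay in exons of 573 to 609 nt.

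**Figure D5:**
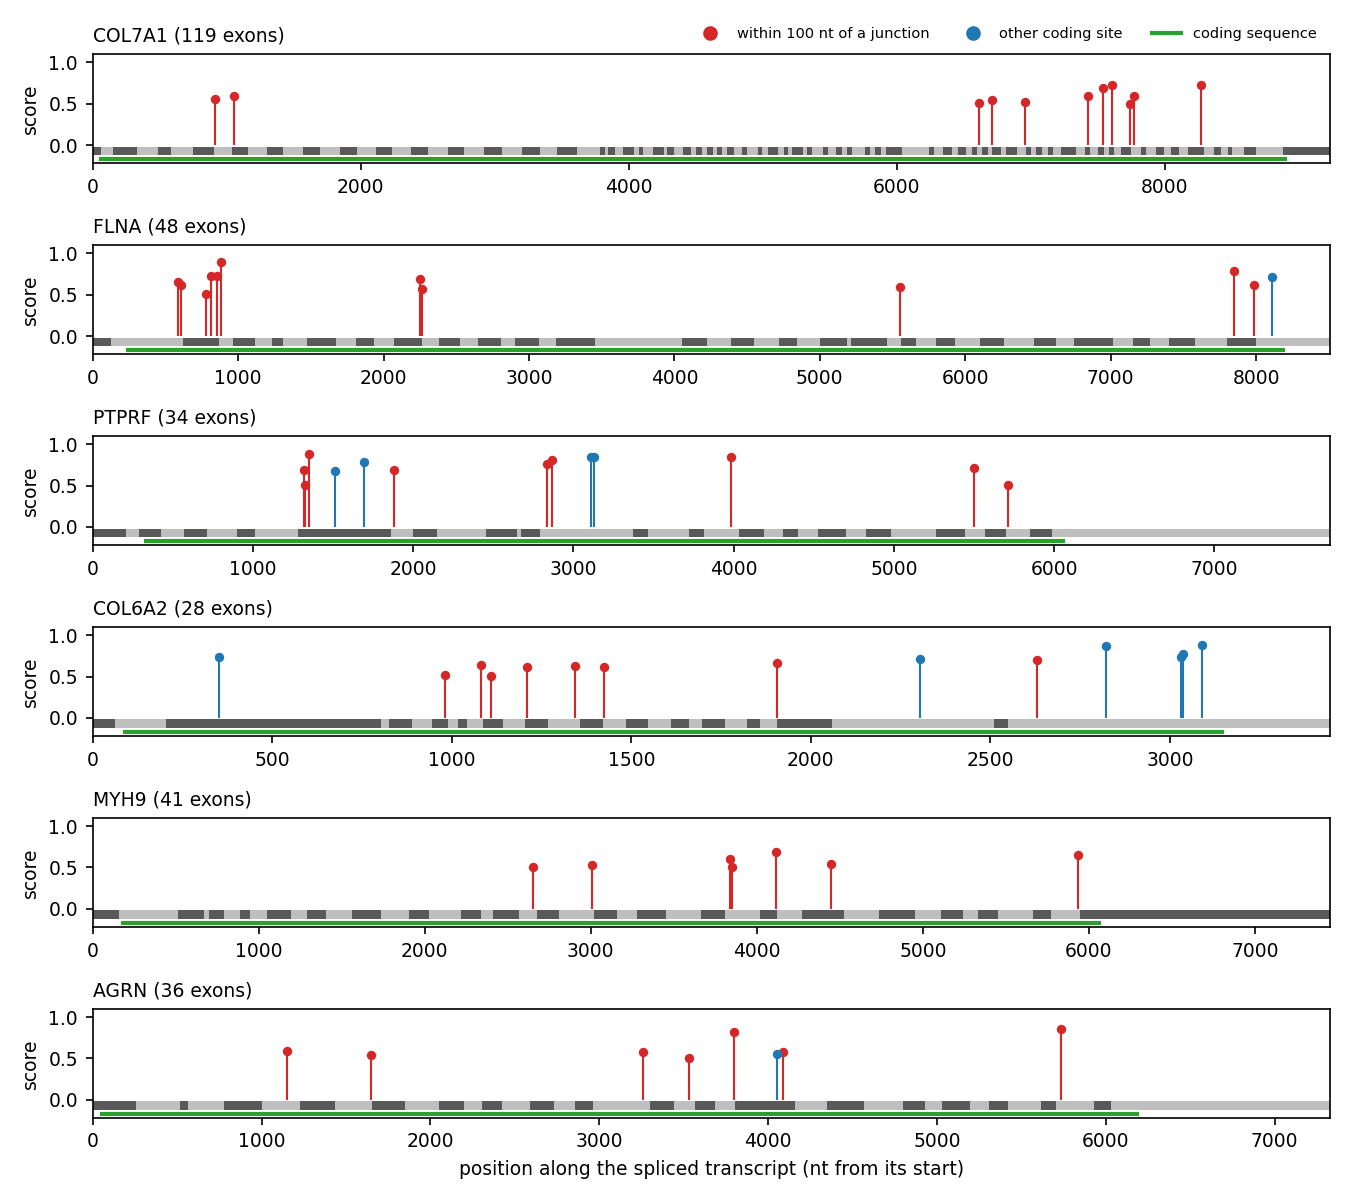
Coding sites of 6 genes with the most members along the spliced transcript (x axis, nt from its start), with the prediction score as height (y axis); red sites are within 100 nt of a junction, blue sites are other coding sites, alternating grey boxes are exons and the green line is the coding sequence. All sites of COL7A1 and MYH9 are red, though COL7A1 has almost no coding sequence beyond 100 nt of a junction. The blue sites of PTPRF and COL6A2 lie in long exons.

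Gene families differed in the share of their coding sites that were members, given here by counts only. Over all spliced coding sites it was 30.3%. This share depends on how much of a family's coding sequence lies within 100 nt of a junction, which exon lengths set. That amount is not given here by family, so whether m6A placement differs between families beyond exon length was not tested. Collagens and laminins had 47 members among 84 coding sites (56%), in 9 of the 10 genes with coding sites, and 34 of the 47 lay in internal exons up to 200 nt. All 5 coding sites of LAMA5 were members, and COL5A1 had 4 of 5. Their close motifs were listed at 4.11% (43 of 1047), near the 3.58% of all.

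Cytoplasmic ribosomal protein genes had 41 members among 42 coding sites, in 27 of 28 genes, 33 of them in internal exons up to 200 nt, and their close motifs were listed at 10.8% (33 of 305). RPSA, RPL3 and RPS24 had the highest scores there, 0.882, 0.876 and 0.863, while the median was 0.603. These genes have many processed pseudogenes of near-identical sequence, and only uniquely mapping reads were used, so their sites are uncertain. Genes of the respiratory chain, chosen by symbol and including the assembly factor NDUFAF3, had 17 members among 22 coding sites in 11 of 13 genes, and 11 of 127 close motifs listed (8.66%). ATP5F1B, a subunit of ATP synthase, had the highest score of these at 0.816. Transcript abundance was not used here, and its part in these shares was not tested.

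Zinc finger ZNF genes, which carry most of their coding sequence in a long last exon, had 13 members among 253 coding sites (5.14%), in 12 of 56 genes. None of the 13 was in an internal exon up to 200 nt, and ZNF581 and ZNF687 had the highest scores, 0.837 and 0.827. Their close motifs were listed at 2.65% (13 of 490). Giant cytoskeletal linkers had 20 members among 79 coding sites, with opposite patterns: PLEC had 2 of 43 and TLN1, or talin, 5 of 5. Plexins and semaphorins had 10 of 42, of which PLXNA1 held 5. Histone lysine methyltransferases and demethylases had 1 of 22, in KMT2D, with 1 of 348 close motifs listed (0.287%). Integrins had 4 of 7, of which the site of ITGB5 scored 0.917, NOTCH and JAG genes had 2 of 3 and SRSF splicing factors 2 of 2. Among genes of m6A writers, readers and erasers, ALKBH5, an eraser, had 1 member among 2 coding sites, and genes of the exon junction complex and nonsense-mediated decay had 0 of 5.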

How the data were processed

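The authors aligned miCLIP2 reads to GRCh38 with GENCODE release 31 and kept uniquely mapping reads. The submitters' processing notes name STAR 2.7.3a, SAMtools 1.9, UMI-tools 1.0.0 and bedtools 2.27.1. Peaks found in at least 2 replicates were classified by m6Aboost. The deposited list holds the positions called modified, pooled over replicates, with the prediction score as a fraction. It holds no reads, so depth per site is unknown, and depth per sample was not used here.

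Sites were placed here on GENCODE release 44 Ensembl canonical transcripts, and 131 sites lay in the coding sequence of more than 1 gene. The base next to a junction is at 1 nt. Coding DRACH motifs of host transcripts were the background. Odds ratios were Mantel-Haenszel estimates stratified by transcript with Robins-Breslow-Greenland intervals and two-sided Cochran-Mantel-Haenszel tests, which assume independent motifs within a transcript. Scores were fitted with transcript and pentamer as fixed effects. p-values were Benjamini-Hochberg adjusted over the 10 tested results (threshold 0.05), and those of the joint model over its terms. Shares have 95% Wilson intervals, and a count of 0 was bounded by 3 counts. The code was tested on simulated data. Alternatives changed the score threshold, transcript choice, window, motifs, sites per transcript and covariates.

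Named host genes are the 12 with most members and the 5 with most sites among genes with at least 3 coding sites that were all members. Named sites are the 6 highest scores, 6 shortest internal exons and 6 closest to a junction, and the highest score at first exon ends, last exon starts and internal exon starts and ends; not all are printed, and some items are not reported here. Genes in lists with members could be named too. PRKCSH, DCTN3 and NACC1 were named after their values were seen. Members and lists were chosen with earlier results of these data known. Python 3.11.15, numpy 2.4.6, pandas 2.3.3, scipy 1.17.1, statsmodels 0.14.6 and matplotlib 3.10.9 were used.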

Additional observations from a re-analysis of the deposited data

How the results depend on the processing

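Of 62 alternative values for 11 results, 49 kept their direction and side of the threshold (or, for the number of members, stayed within 1.5 times). With a score of at least 0.7, 876 sites were members, the odds ratio for the side of the junction was 1.04, that for DRACH was 1.48 without passing the threshold, and the score difference was -0.00648. Within 50 nt of a junction there were 1279 members, and 3 odds ratios no longer passed: 1.05 for distance, 1.12 for GGACT and 1.1 for DRACH. The GGACT and DRACH values were set against all coding sites beyond 50 nt. The side of the junction, which passed under no setting, was also 1.14 in transcripts with 1 listed motif close to a junction, 0.862 (0.744 to 0.999) within 50 nt of a junction, and 1.002 for motifs close to a junction in every annotated transcript, chosen after seeing the data. The odds ratio of first exon ends missed the threshold for GGACT motifs alone (1.88) and in the joint model (1.2), where last exon starts turned to 0.91. The cause was not tested. On the longest supported transcript in place of the canonical one there were 1990 members, 1979 of them shared (88.4% of the members here). No paired analysis was possible because all samples form 1 group, and leaving out replicates could not be run on a pooled list. Unknown depth limits every statement on motifs that were not listed.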
